A study of Mus musculus with 18 samples.

Results

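Mammary organoids that lack RasGRP1 were compared after growth in a medium with epidermal growth factor (EGF) and in a medium with a surrogate Wnt ligand and an R-spondin. The comparison takes 6 of the 18 RNA-seq libraries of the series, chosen by their labels, with 3 libraries in each medium. All organoids were made from mammary glands of C57BL/6 mice aged 6 to 7 weeks, either RasGRP1-/- (KO) or wild type (WT). The organoids were embedded in matrigel, a gel of basement membrane proteins. The base medium was DMEM/F12, to which an insulin, transferrin and selenium supplement was added, and treatment lasted 5 days. The EGF medium held EGF at 2.5 nM. The WR medium held NGS-Wnt, a designed protein that activates Wnt receptors, at 0.1 nM and R-spondin 2 (Rspo2) at 8.3 nM, and no EGF. Another medium held all 3 factors. The KO EGF and KO WR organoids therefore share the RasGRP1-/- genotype, and differ both by the presence of EGF and by the absence of NGS-Wnt and Rspo2, so that an effect of adding EGF and an effect of leaving out the Wnt factors cannot be told apart between them. The labels do not say which exons the RasGRP1 allele lacks, whether it is lost in all tissues, or whether glands of several mice were pooled. The replicates are biological per the series' design.

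EGF binds the EGF receptor, whose signal passes through Ras to the kinases RAF, MEK and ERK. ERK in turn induces the ETS factors Etv1, Etv4 and Etv5 and feedback inhibitors such as Dusp6 and the Sprouty proteins. RasGRP1 is a guanine nucleotide exchange factor that loads Ras with GTP, best known from lymphocytes. Wnt ligands, whose receptors R-spondins keep on the cell surface, stabilise beta-catenin, which with TCF/LEF factors induces target genes such as Axin2. The mammary epithelium has a basal layer, marked by Krt5, Krt14 and p63, and luminal cells, marked by Krt8 and Krt18, from which milk-producing alveolar cells arise.

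The KO libraries held 24290097, 25381986 and 29978161 counts in EGF medium and 27397674, 25156341 and 29502663 counts in WR medium. Between 18926 and 22319 genes had a count in a library of the series, and mitochondrial genes took 1.48% to 2.02% of the KO EGF libraries and 1.93% to 2.26% of the KO WR libraries. Rasgrp1 (chr2:117279993-117343001, GRCm38, minus strand) had 0, 6 and 4 counts in KO EGF organoids, 0, 0 and 9 in KO WR, 15, 15 and 21 in WT EGF, and 28, 10 and 25 in WT WR. These low counts check the labels only in part: over the 3 media the log2 fold change of KO over WT was -2.71, with an adjusted p of 0.173 in edgeR, and -2.93 with 0.00793 in DESeq2. On the first principal component of the 6 libraries, which held 34.4% of the variance, KO WR replicate 2 stood farthest out at -92.6, against -16.6 and 28.2 for the other KO WR libraries and -6.56 to 62.3 for the KO EGF libraries. The summed level of 11 immediate-early genes (Fos, Egr1 and others, which respond within minutes to growth factors and to handling) was also highest in that library, at 15320 CPM, counts scaled to a common library size. It was 4968, 8535 and 5188 CPM in KO EGF organoids and 4058, 15320 and 7194 CPM in KO WR organoids. Values without this library are given beside the results that they change most.

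The medium changed a large part of the transcriptome. Of 17092 genes tested with edgeR's quasi-likelihood test, with the batch of the labels as a block, 2306 (13.5%) passed an adjusted p of 0.05. In EGF medium 1290 genes (7.55% of those tested) were higher and 1016 (5.94%) were lower than in WR medium. Of the 2306 genes, 2298 (99.7%) moved the same way in all 3 batches. The calls come from these same libraries, so this agreement is not a separate check. No overlap in CPM between the media was seen for 1589 (68.9%), against 16.3% of all genes tested. Moderate changes made up the greater part: 334 of the higher and 346 of the lower genes changed at least 2-fold. Past 8-fold there were 36 higher and 84 lower genes. Permuting 3 against 3 libraries exactly gives no p under 0.1 for any gene. With the pairing by batch, an exact sign-flip test of 3 pairs gives none under 0.25. Each call therefore rests on the spread that the model shares across genes. Without the batch term 729 genes were called (438 higher and 291 lower), all of them among the 2306. Leaving out KO EGF replicate 2 or 3 left 669 or 641 lower genes, against 1016 with all libraries.

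**Figure D1:**
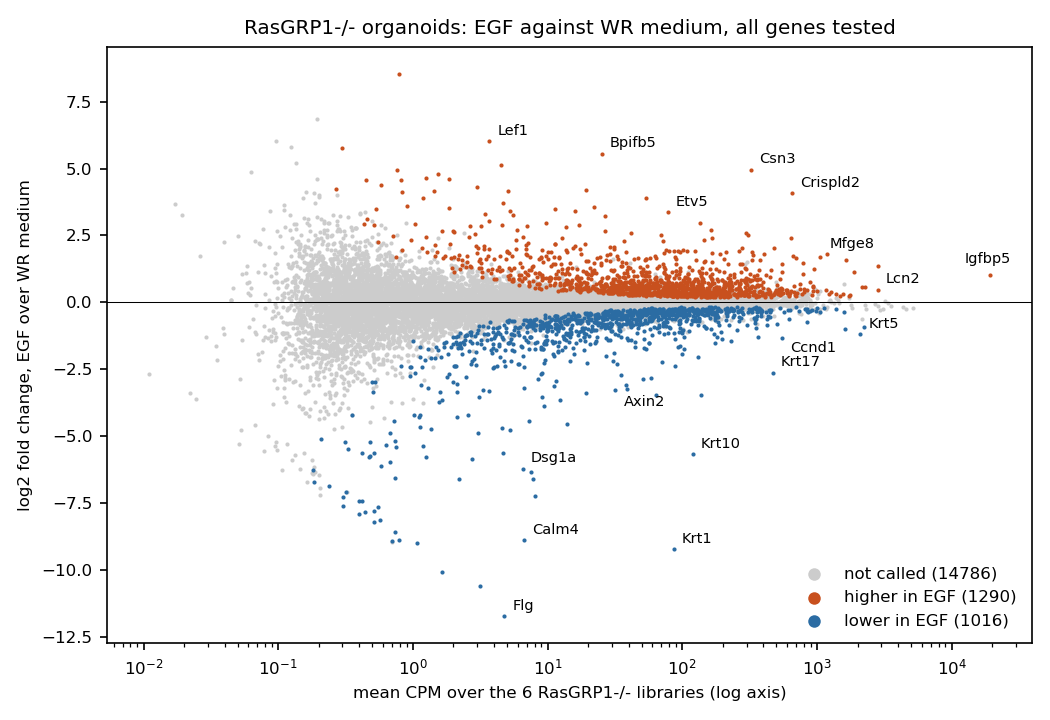
Each point is 1 of 17092 genes in KO organoids, placed by its mean level over the 6 libraries (CPM, log axis) and its log2 fold change, EGF over WR medium. Coloured points are the 1290 genes higher and the 1016 genes lower in EGF medium at an adjusted p under 0.05, and the largest changes lie on the lower side.

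The genes with the largest rises in EGF medium included secreted and milk proteins. CPM values compare a gene between libraries and not with other genes, since they are not per length. Csn3 (chr5:87925579-87932665, plus strand), which encodes kappa-casein, had 582, 572 and 717 CPM in KO EGF organoids, against 9.30, 22.0 and 32.3 CPM in KO WR organoids. The media were far apart in every batch, with means of 624 ± 81.2 CPM in EGF and 21.2 ± 11.5 CPM in WR medium (SD, n = 3 each), a 31.2-fold rise (log2 4.96 ± 0.35 SE, adjusted p = 3.3e-06, edgeR). Crispld2 (chr8:119992438-120052793), which encodes a secreted glycoprotein, had 1016, 1229 and 1428 CPM in KO EGF organoids, against 54.6, 82.0 and 78.3 CPM in KO WR organoids. It rose 16.9-fold (log2 4.08 ± 0.25, adjusted p = 6.18e-07), again with no overlap.

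Among the 12 largest rises of genes with at least 4 CPM on average, Bpifb5, of the secreted BPI fold family, rose most, by 5.56 ± 0.25 on the log2 scale. It had 68.0, 32.1 and 47.7 CPM in KO EGF organoids, against 0.905, 0.659 and 1.52 CPM in KO WR organoids. Rtn1, a reticulon of the endoplasmic reticulum, rose by 5.15 ± 0.43. Slc38a3, a glutamine transporter, rose by 4.21 ± 0.22. Lalba, which encodes alpha-lactalbumin of the lactose synthase complex, rose by 4.18 ± 0.39, with 6.18, 10.3 and 12.5 CPM in KO EGF organoids against 0.697, 0.165 and 0.694 CPM in KO WR organoids. Col9a1 and Col2a1, collagens best known from cartilage, rose by 3.90 ± 0.33 and 3.71 ± 0.47. The others were Chn2, a Rac GTPase-activating protein (3.56 ± 0.20), Etv1 (3.51 ± 0.20), the muscarinic receptor Chrm3 (3.43 ± 0.24) and Bpifb1 (3.40 ± 0.59). Bpifb1 lost its call without batch 3, with an adjusted p of 0.0509. Each of these 12 genes passed edgeR's test at an adjusted p of at most 0.00104 and was higher in EGF medium in 3 of 3 batches. Both follow from the rule that chose them, which requires a call and no overlap between the media.

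**Figure D2:**
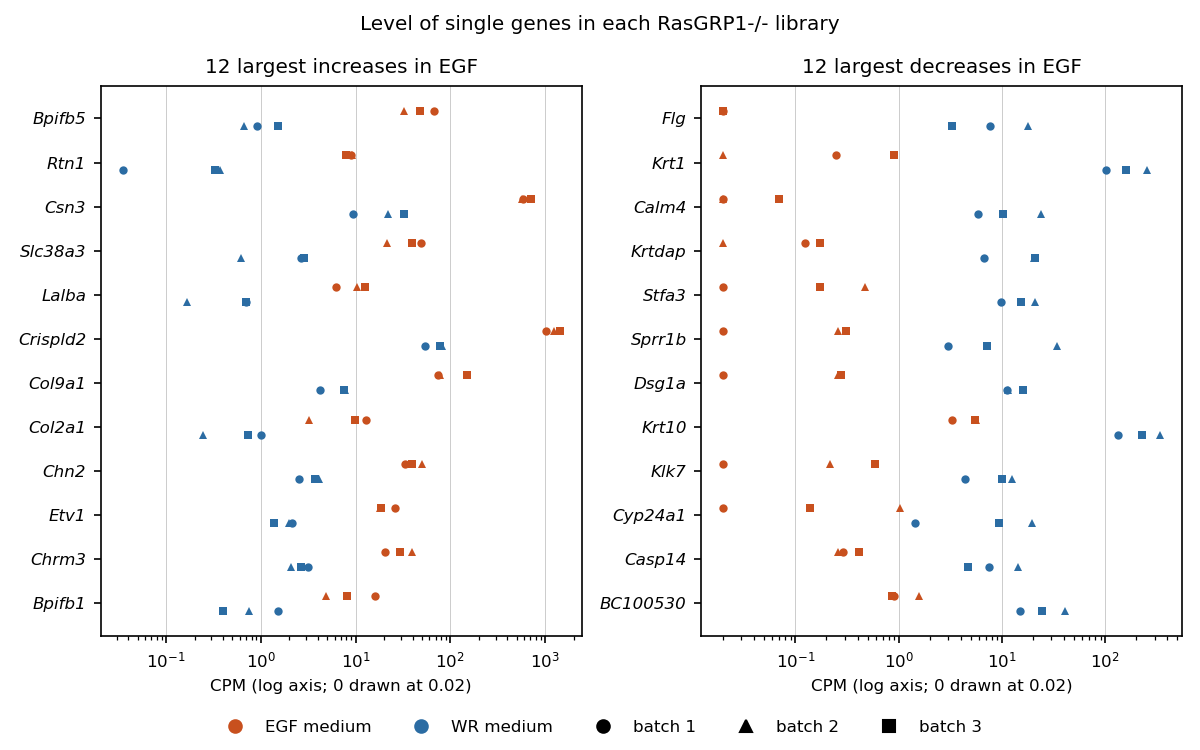
The 12 largest rises (left) and the 12 largest falls (right) in KO organoids are shown by their CPM in each of 3 EGF and 3 WR libraries on a log axis, with a value of 0 drawn at 0.02. The 2 media do not overlap in any of the 24 genes, as the rule that chose them requires, and among the falls most EGF values lie near or under 1 CPM.

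Milk genes did not move as a whole. Of 19 tested members of the list of milk and alveolar genes, 5 rose and 1 fell, with a median log2 fold change of 0.45 (-0.02 over all genes tested). Without the batch term, 3 rose and 0 fell. Leaving out single libraries gave medians of 0.18 (without KO EGF replicate 2) to 0.37 (without KO EGF replicate 3). In a fit of the 6 libraries alone, 15 members were tested and the median was 0.21. Csn1s1, which encodes alpha-S1-casein, had 325, 363 and 622 CPM in KO EGF organoids, against 48.6, 95.1 and 218 CPM in KO WR organoids. It rose by 2.01 ± 0.23 with no overlap (adjusted p = 7.37e-05). Mfge8, a milk fat globule protein, rose by 1.57 ± 0.14 and the phosphate transporter Slc34a2 by 1.24 ± 0.29. Cel, a bile salt-activated lipase of milk, fell by 1.29 on the log2 scale (SE 0.33). The calls of Slc34a2 (lost without KO EGF replicate 3, KO WR replicate 1 or 2, adjusted p up to 0.0663) and Cel (lost without KO EGF replicate 1 or 2 or KO WR replicate 3, up to 0.129) depended on single libraries. Csn2, beta-casein, stayed near the limit of detection, at 0.0412, 0.515 and 0.378 CPM in KO EGF organoids and 0.139, 0 and 0.132 CPM in KO WR organoids (log2 1.88 ± 1.55, adjusted p = 0.519). Wap, whey acidic protein, had 3 counts in all in EGF medium and 35 in WR medium (adjusted p = 0.0515). Elf5, a transcription factor of alveolar cells, had a log2 fold change of -0.12 ± 0.12.

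The largest falls in EGF medium were of genes of the stratified, cornifying epidermis. Of the 12 largest falls, 9 stand on the list of squamous keratins and cornified envelope genes. Of that list's 38 tested members (of 43 listed), 21 fell and 1 rose, beside 5.94% of all genes tested that fell. Its median log2 fold change was -2.63. Among the 38, 5 had no count in the KO EGF libraries, so these could only fall. With a filter of at least 1 CPM in 3 libraries, 33 members were tested, 20 fell and the median was -2.38. In a fit of the 6 libraries alone, 33 were tested, 20 fell and the median was -2.13. Without the batch term 17 fell and 1 rose. Leaving out any single library left 17 to 21 falls. The list's summed level was 388, 740 and 690 CPM in KO EGF organoids, against 1084, 2002 and 2057 CPM in KO WR organoids.

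Krt10 (chr11:99385254-99389364, minus strand), a keratin of suprabasal epidermal cells, had 3.30, 5.58 and 5.46 CPM in KO EGF organoids, against 133, 339.8 and 229 CPM in KO WR organoids. Its lowest value in WR medium was above every value in EGF medium, and it was 50.5-fold lower in EGF medium (log2 -5.66 ± 0.61, adjusted p = 0.000102, edgeR). Krt1 (chr15:101845428-101850786, minus strand), which pairs with Krt10, had 0.247, 0 and 0.893 CPM in KO EGF organoids, against 102, 254 and 159.7 CPM in KO WR organoids (log2 -9.22 ± 0.96, adjusted p = 7.6e-05). Flg (chr3:93273523-93293686, plus strand), which encodes filaggrin, had no count in the 3 KO EGF libraries and 220, 431 and 100 counts in the KO WR libraries. That makes it at least 230.5-fold lower in EGF medium, against a floor of 3 counts over the group (adjusted p = 0.0105). It kept its call without any single library and lost it without batch 1 or 2, with an adjusted p of up to 0.154. Calm4, a calmodulin-like protein of epidermis, had 2 counts in EGF medium and 1063 in WR medium, 489.4-fold lower with a 95% counting interval of 135.2 to 4047.

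Other genes of cornification fell as well. Krtdap, keratinocyte differentiation-associated protein, had 0.124, 0 and 0.172 CPM in KO EGF organoids, against 6.65, 20.5 and 20.7 CPM in KO WR organoids (log2 -7.25 ± 0.88, adjusted p = 0.000109). Sprr1b, a small proline-rich envelope protein, had 0, 0.258 and 0.309 CPM in KO EGF organoids, against 3.03, 34.5 and 7.10 CPM in KO WR organoids (log2 -6.35 ± 0.69, adjusted p = 1.78e-05). The desmosomal cadherin Dsg1a fell by 6.21 on the log2 scale (SE 0.51), the protease Klk7, which sheds corneocytes, by 5.64 (SE 0.92) and the epidermal caspase Casp14 by 4.69 (SE 0.59). The remaining 3 of the 12 largest falls were Stfa3, of the stefin family of protease inhibitors (-6.60 ± 0.96), the vitamin D hydroxylase Cyp24a1 (-4.78 ± 1.01) and BC100530 (-4.56 ± 0.50). Krt79 had 17.6, 24.9 and 23.7 CPM in KO EGF organoids, against 188, 149.7 and 425 CPM in KO WR organoids (log2 -3.47 ± 0.42). Krt16 and Krt6a, keratins of stressed and wounded epidermis, fell by 3.07 (SE 0.43) and 2.38 (SE 0.33). Not every envelope gene fell. Ivl (0.21), Sprr1a (0.16), Lor (-0.37) and Tgm1 (-0.37) had log2 fold changes near 0 and were not called, and Krt4, a keratin of wet mucosal epithelia, rose by 1.63 ± 0.25. Krt6a and Krt6b, Krt14, Krt16 and Krt17, Dsg1a and Dsg1b, and the Stfa family are near-identical copies in part, so that reads may be split among them.

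Promoters of 3 of the genes that fell and 1 that rose are shown because each matches the pattern searched for AP-1 or STAT5. These are factors downstream of growth factor or prolactin signals. The promoters and the motifs were chosen after the values were seen, from 4 motifs searched. In these patterns N stands for any base, so they are loose. The sequences are the 150 bases before the start site from RefSeq on GRCm38.p6, given in the direction of the gene, with the motif in capitals. Flg lies at chr3:93273396-93273545 (plus strand), Sprr1b at chr3:92438780-92438929 (minus strand), Krtdap at chr7:30787755-30787904 (plus strand) and Csn1s1 at chr5:87666058-87666207 (plus strand). Counted from the start site, the match to the AP-1 pattern TGANTCA starts at -103 in Flg, -111 in Sprr1b and -81 in Krtdap. It reads TGAATCA in Flg and Sprr1b and TGAGTCA in Krtdap. The match to the STAT5 pattern TTCNNNGAA starts at -100 in Csn1s1.
Flg: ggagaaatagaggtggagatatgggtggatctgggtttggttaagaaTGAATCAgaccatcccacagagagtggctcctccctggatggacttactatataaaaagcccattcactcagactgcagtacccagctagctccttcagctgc
Sprr1b: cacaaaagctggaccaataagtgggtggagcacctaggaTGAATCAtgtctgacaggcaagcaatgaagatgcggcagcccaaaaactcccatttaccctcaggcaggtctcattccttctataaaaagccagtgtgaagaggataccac
Krtdap: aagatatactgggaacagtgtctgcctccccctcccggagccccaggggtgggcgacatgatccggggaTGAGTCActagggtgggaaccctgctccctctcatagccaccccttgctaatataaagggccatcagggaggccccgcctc
Csn1s1: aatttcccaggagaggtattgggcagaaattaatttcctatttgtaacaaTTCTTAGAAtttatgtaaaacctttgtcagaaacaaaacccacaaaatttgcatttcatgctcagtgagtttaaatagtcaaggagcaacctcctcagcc

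In the 250 bases before the start site, on both strands, AP-1 was in 8 of 30 promoters of the squamous list (26.7%; Flg, Flg2, Ivl, Krtdap, Lor, Sbsn, Sprr1a and Sprr1b). It was in 7.06% of the promoters of all genes that fell, in 5.76% of those of genes that rose, and in 4.97% of all 15102 promoters, which belong to 11849 tested genes. The 8 genes include Ivl, Lor and Sprr1a, which were not called. STAT5 was in 3 of 16 promoters of the milk list (18.8%; Csn1s1, Csn2 and Glycam1), in 6.14% of those of genes that rose and in 5.87% of all. STAT5 was also in 3 of 30 promoters of the squamous list (Cdsn, Klk10 and Tgm1). The TCF/LEF motif CTTTGAT was in 3 of those 30 (Flg2, Krtdap and Tgm1), in 1.52% of promoters of genes that rose, 3.18% of those that fell and 2.32% of all. The ETS motif CCGGAAG was in 110 of 1319 promoters of genes that rose, 71 of 1006 of those that fell and 1807 of all 15102. AP-1 was also in 1 of 16 promoters of the milk list (6.25%), that of Csn1s1, whose printed sequence is marked for STAT5 only. These matches are descriptions of the letters, with any base taken at N, and binding was not measured.

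The basal keratins Krt5, Krt14 and Krt17 fell in EGF medium. Krt5 (chr15:101707070-101712891, minus strand), the defining keratin of basal cells, had 1098, 1399 and 1373 CPM in KO EGF organoids, against 2501, 2752 and 3457 CPM in KO WR organoids. The media did not overlap, and it fell by 1.17 on the log2 scale (SE 0.17, adjusted p = 0.000298, edgeR). Krt14, its partner, fell by 0.92 (SE 0.11), and Krt17, a keratin of appendages and injured skin, by 2.63 (SE 0.32), with 58.9, 299 and 77.5 CPM in KO EGF organoids against 349.6, 1194 and 838 CPM in KO WR organoids. Trp63, which encodes the basal transcription factor p63, had 71.5, 52.0 and 68.9 CPM in KO EGF organoids, against 114, 130.4 and 157 CPM in KO WR organoids (log2 -1.06 ± 0.14). Snai2, a repressor of luminal genes, fell by 1.02 (SE 0.20). Acta2, smooth muscle actin of myoepithelial cells, had 743, 828 and 651 CPM in KO EGF organoids and 770.1, 1002 and 574 CPM in KO WR organoids, which overlap (log2 -0.06 ± 0.18, adjusted p = 0.885). In all, 8 of 25 basal and myoepithelial markers fell and 3 rose (5 and 0 without the batch term). Without KO EGF replicate 2 or 3 or KO WR replicate 3, 1 marker rose, and 7 to 9 fell without any single library. In bulk RNA, fewer cells of a type and less RNA of a gene per cell cannot be told apart.

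More luminal progenitor markers rose than fell. Of 18 tested, 9 rose and 3 fell (7 and 1 without the batch term). Itgb3, the integrin beta-3 chain (CD61), had 312, 276 and 238 CPM in KO EGF organoids, against 77.2, 53.1 and 33.3 CPM in KO WR organoids (log2 2.41 ± 0.35, adjusted p = 0.00082, edgeR). The Notch effector Hey1 had 206, 202 and 185 CPM in KO EGF organoids, against 47.7, 68.3 and 41.9 CPM in KO WR organoids (log2 1.90 ± 0.24). In both genes the lowest EGF value was far above the highest WR value. Cd14 rose by 1.43 ± 0.12, Lcn2, which encodes a secreted siderophore-binding protein, by 1.34 ± 0.09, and Aldh1a3, an aldehyde dehydrogenase, by 1.26 ± 0.17. Ehf, an epithelial ETS factor, fell by 0.83 (SE 0.11) and Ltf, lactoferrin, by 1.16 (SE 0.13). Kit, the stem cell factor receptor used to sort these cells, had a log2 fold change of -0.23 ± 0.14 and was not called (adjusted p = 0.357).

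Hormone-sensing luminal markers also had more rises than falls, with 7 higher and 1 lower of 14 tested (3 and 0 without the batch term, and 4 higher without KO EGF replicate 3, KO WR replicate 1 or KO WR replicate 2). Prlr, the prolactin receptor, had 195, 194 and 182 CPM in KO EGF organoids, against 67.2, 91.1 and 115 CPM in KO WR organoids (log2 1.08 ± 0.14, adjusted p = 6.18e-05, edgeR). Esr1, the oestrogen receptor, had 22.9, 21.8 and 28.5 CPM in KO EGF organoids, against 12.9, 12.3 and 19.1 CPM in KO WR organoids, also without overlap (log2 0.73 ± 0.18, adjusted p = 0.0102). Its call was lost without KO EGF replicate 2 or 3 or KO WR replicate 1, with an adjusted p of up to 0.0711. Cited1, a transcriptional co-activator, rose by 1.83 ± 0.29. Pgr, the progesterone receptor, rose by 0.50 ± 0.13 (adjusted p = 0.0159) and lost its call without KO EGF replicate 1 or KO WR replicate 2 (up to 0.0903). Luminal keratins changed little: Krt18 rose by 0.41 ± 0.13 (adjusted p = 0.0491, lost without KO EGF replicate 2 or 3 or KO WR replicate 1 or 3, up to 0.307), and Krt8 had 0.28 ± 0.13 (adjusted p = 0.173). Epcam, a pan-luminal adhesion molecule, rose by 0.41 ± 0.08. Of 12 luminal keratins and adhesion genes tested, 3 rose and 2 fell (0 and 0 without the batch term), with a median log2 fold change of 0.10. Cdh1 and Cd24a were lower in EGF medium (adjusted p = 0.0222 and 0.0151, edgeR). Both lost the call without single libraries (adjusted p up to 0.123 and 0.119).

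Of 25 ERK-responsive genes tested, 6 rose and 2 fell, with a median log2 fold change of 0.01. All 3 ETS factors of the Pea3 subfamily rose. Etv5 (chr16:22381309-22439719, minus strand) had 162, 93.7 and 171 CPM in KO EGF organoids, against 9.02, 15.6 and 15.9 CPM in KO WR organoids (log2 3.38 ± 0.26, adjusted p = 3.84e-06, edgeR). Etv1 had 26.1, 18.1 and 18.5 CPM in KO EGF organoids, against 2.12, 1.98 and 1.39 CPM in KO WR organoids. Etv4 had 51.1, 60.0 and 68.8 CPM in KO EGF organoids, against 12.1, 19.8 and 17.1 CPM in KO WR organoids (log2 1.90 ± 0.23). None of the 3 overlapped between media. Spred1, a Ras inhibitor, rose by 0.51 ± 0.10, Dusp4, an ERK phosphatase, by 0.91 ± 0.26, and the early-response gene Ier3 by 0.93 ± 0.28, whose call was lost without any single library other than KO WR replicate 2 (adjusted p up to 0.179). Dusp4 lost its call without KO EGF replicate 1 or 2 or KO WR replicate 1 or 3 (up to 0.163).

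The feedback genes best known as ERK readouts overlapped between the media. Dusp6 had 307, 649 and 288 CPM in KO EGF organoids and 45.4, 359.6 and 116 CPM in KO WR organoids (log2 1.42 ± 0.49, adjusted p = 0.0868). It was higher in EGF medium in each batch, but its level in KO WR replicate 2 was above 2 of the 3 EGF values. Spry2 (0.61 ± 0.24, adjusted p = 0.131) and Spry4 (0.43 ± 0.17, adjusted p = 0.111) were not called either. Fos and Egr1 had log2 fold changes of -0.38 and -0.62, with Fos at 684, 1263.5 and 685 CPM in KO EGF organoids and 541, 2116 and 968 CPM in KO WR organoids, and were not called. Without KO WR replicate 2, 8 of the 25 genes rose and 2 fell, the list's median was 0.36, and Dusp6 (log2 2.14, adjusted p = 0.0168) and Spry2 (0.96, adjusted p = 0.00776) passed the test. Without KO WR replicate 1, 4 rose and 4 fell, and without the batch term 4 rose and 1 fell. DESeq2 called Dusp6 (adjusted p = 0.0249) and Spry2 (0.0352) with all libraries. The part of handling in the high immediate-early sum of KO WR replicate 2 was not tested.

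Ccnd1 (cyclin D1) and Myc, which stand on both the ERK and the Wnt list, fell in EGF medium. Ccnd1 had 255, 309.5 and 377 CPM in KO EGF organoids, against 712, 728 and 897 CPM in KO WR organoids (log2 -1.32 ± 0.09, adjusted p = 2.83e-08, edgeR). Myc had 128, 84.2 and 149 CPM in KO EGF organoids, against 166, 228 and 403 CPM in KO WR organoids (log2 -1.10 ± 0.21, adjusted p = 0.00302), and lost its call without batch 2 (0.124). For neither gene did the media overlap. Of 16 tested genes of the EGF receptor family, its ligands and its feedback inhibitors, 2 rose and 1 fell (1 and 0 without the batch term). That is 18.8% called, beside 13.5% of all genes tested. Nrg2, a neuregulin ligand, rose by 2.44 ± 0.47 and Lrig1, which lowers receptor levels, by 0.88 ± 0.16. Lrig3 fell by 0.42 (SE 0.10). Egfr itself had 158, 201 and 152 CPM in KO EGF organoids and 157, 189 and 137 CPM in KO WR organoids (log2 0.09 ± 0.10, adjusted p = 0.676), and its ligand Areg had a log2 fold change of 0.41 ± 0.29.

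More Wnt targets fell than rose, with 9 lower and 2 higher of 21 tested and a median log2 fold change of -0.74 (6 lower and 1 higher without the batch term). Axin2 (chr11:108920349-108950783, plus strand), a feedback inhibitor and the usual readout of the pathway, had 1.73, 9.44 and 6.91 CPM in KO EGF organoids, against 19.96, 78.5 and 74.6 CPM in KO WR organoids. It was 9.61-fold lower in EGF medium with no overlap (log2 -3.26 ± 0.41, adjusted p = 0.000171, edgeR). Tnfrsf19 (Troy), a receptor induced by Wnt, fell by 3.73 on the log2 scale (SE 0.55). Wif1, a secreted Wnt inhibitor, had 43.0, 49.4 and 45.8 CPM in KO EGF organoids, against 208, 102 and 172 CPM in KO WR organoids (log2 -1.75 ± 0.18). The feedback inhibitors Nkd1 and Apcdd1 fell by 1.48 (SE 0.30) and 1.30 (SE 0.24), and Rnf43, a ligase that removes Wnt receptors, by 0.74 (SE 0.19). Nkd1 lost its call without batch 3, and Rnf43 without KO EGF replicate 1 or 3 or KO WR replicate 2 or 3 (adjusted p up to 0.111).

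Lgr5 (chr10:115450311-115587780, minus strand), an R-spondin receptor, had 98.6, 73.7 and 84.3 CPM in KO EGF organoids and 170.4, 89.7 and 118 CPM in KO WR organoids. These ranges overlap, although Lgr5 was lower in EGF medium in 3 of 3 batches (log2 -0.52 ± 0.14, adjusted p = 0.0207, edgeR). Its call was lost without KO EGF replicate 1 or 2 or KO WR replicate 1 or 3 (adjusted p up to 0.107), and without the batch term (0.396). Lef1 (chr3:131110471-131224356, plus strand), a TCF/LEF factor that is itself a Wnt target, went the other way. It had 16.9, 1.20 and 3.75 CPM in KO EGF organoids, against 0.0697, 0 and 0.198 CPM in KO WR organoids (log2 6.04 ± 0.98, adjusted p = 0.000637, and 0.0784 without the batch term). The media did not overlap, and the EGF values differed widely among batches. Bambi, a decoy receptor, rose by 0.76 ± 0.10. Notum (-1.93), Ascl2 (-1.54), Sox9 (-0.17), Cd44 (0.06) and Tcf7 (0.40) were not called.

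**Figure D3:**
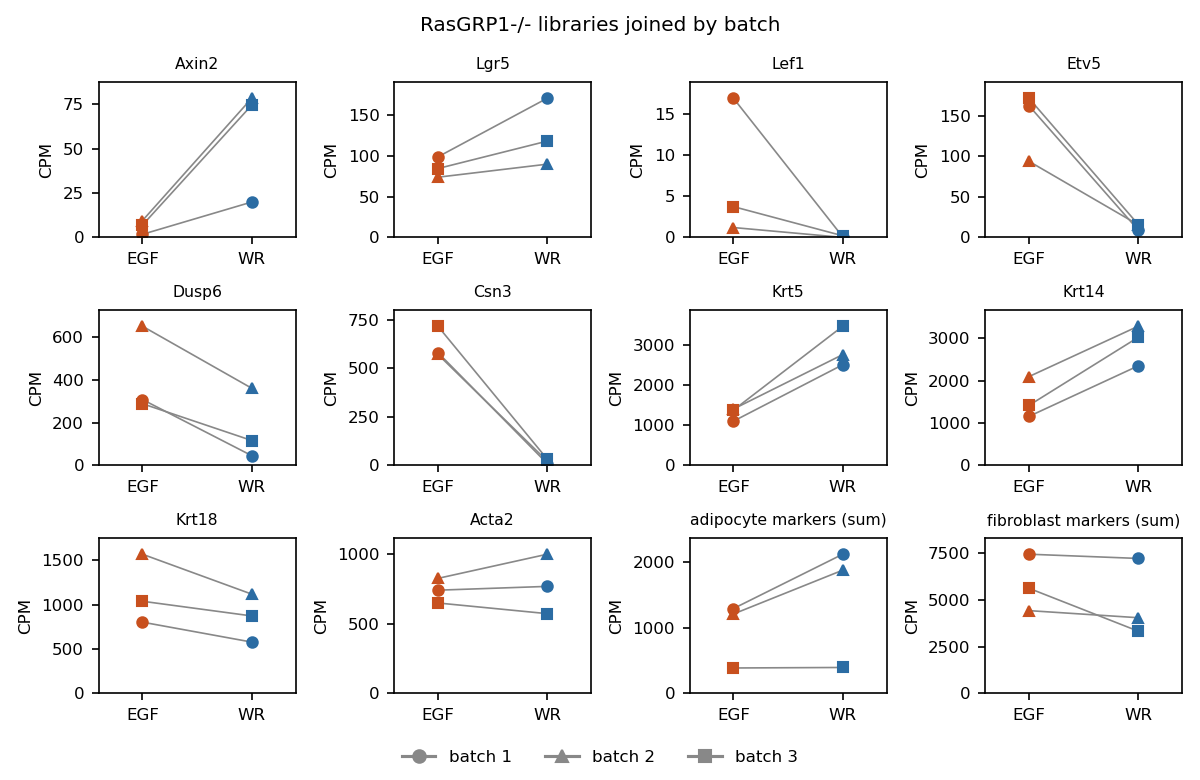
CPM of 10 genes and of the summed adipocyte and fibroblast markers in KO organoids, EGF medium left and WR medium right, with lines joining the libraries of a batch. Axin2 is lower in EGF medium in every batch (1.73, 9.44 and 6.91 CPM against 19.96, 78.5 and 74.6 CPM), Etv5 and Csn3 are higher in every batch, and Acta2 crosses.

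Ligands and receptors of the Wnt pathway moved in both directions, with 8 higher and 5 lower of 30 tested (4 and 3 without the batch term, 5 and 3 without KO EGF replicate 2). The ligands that were called all fell. Wnt10a had 10.2, 14.7 and 8.11 CPM in KO EGF organoids, against 42.8, 40.6 and 46.3 CPM in KO WR organoids (log2 -2.02 ± 0.27, adjusted p = 0.00013, edgeR). Wnt6 fell by 2.76 (SE 0.53), and Rspo1, an R-spondin of luminal cells, by 2.43 (SE 0.37), with 1.98, 1.29 and 2.89 CPM in KO EGF organoids against 15.05, 6.30 and 12.8 CPM in KO WR organoids. Wnt10b fell by 1.55 (SE 0.43) and lost its call without KO EGF replicate 2 or 3 or KO WR replicate 1 or 3 (adjusted p up to 0.128), and Wnt5b fell by 0.46 and lost its call without KO EGF replicate 1 or 2 or KO WR replicate 2 (up to 0.0603). The receptors of this list that were called rose, unlike Lgr5 of the target list above. Lrp5, a Wnt co-receptor, had 603, 758 and 698 CPM in KO EGF organoids, against 346, 387 and 387 CPM in KO WR organoids (log2 0.88 ± 0.07). Its relative Lrp6 rose by 0.63 ± 0.09, and the R-spondin receptors Lgr6 and Lgr4 rose by 0.53 ± 0.10 and 0.42 ± 0.11. Lgr4 lost its call without KO EGF replicate 2 or KO WR replicate 2 (up to 0.14). The secreted inhibitor Sfrp1 had 299, 245 and 344 CPM in KO EGF organoids, against 92.5, 81.1 and 84.9 CPM in KO WR organoids (log2 1.79 ± 0.22).

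Genes proposed as mammary stem cell markers did not move together, with 5 higher and 6 lower of 20 tested (2 and 5 without the batch term) and a median of -0.41. Tspan8, a tetraspanin, had 279, 223 and 274 CPM in KO EGF organoids, against 66.8, 68.9 and 77.1 CPM in KO WR organoids (log2 1.85 ± 0.19, adjusted p = 2.86e-05, edgeR). Bcl11b, a zinc finger factor of basal cells, had 24.7, 29.1 and 21.3 CPM in KO EGF organoids, against 93.7, 77.8 and 73.4 CPM in KO WR organoids (log2 -1.74 ± 0.23, adjusted p = 0.00021). Neither gene overlapped between media. The aldehyde dehydrogenase Aldh1a1 fell by 1.78 (SE 0.41). Procr, the protein C receptor, had a log2 fold change of -0.61 ± 0.22 and was not called (adjusted p = 0.0825), although DESeq2 called it (0.0447).

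Of 36 tested genes of DNA replication and mitosis, 1 rose and 5 fell (16.7% called, beside 13.5% of all genes tested), with a median log2 fold change of -0.32. Without the batch term 0 were called, and in a fit of the 6 libraries alone 15 fell. Leaving out single libraries left 1 to 7 falls (1 without KO EGF replicate 3 or KO WR replicate 3, 2 without KO EGF replicate 1, 3 without KO EGF replicate 2 or KO WR replicate 1, 7 without KO WR replicate 2). Mki67, a proliferation marker, had 217, 233 and 209.9 CPM in KO EGF organoids, against 307, 312 and 362 CPM in KO WR organoids. The media did not overlap (log2 -0.58 ± 0.16, adjusted p = 0.0296, edgeR), but the call was lost without KO EGF replicate 2 or 3 or KO WR replicate 1 or 3 (up to 0.14). Mcm6, a subunit of the replicative helicase, fell by 0.60 (SE 0.11). Of 10 D cyclins and inhibitors of cyclin-dependent kinases, 4 fell and 0 rose: Ccnd1, Ccnd2 (-1.53 ± 0.36), Cdkn2c (-0.54) and Cdkn1b (-0.45 ± 0.09). Ccnd2 and Cdkn2c lost their calls without KO EGF replicate 2 or 3 or KO WR replicate 3 (adjusted p up to 0.129).

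Of 23 collagen genes, 6 rose and 2 fell (4 and 0 without the batch term). The largest rises were of Col9a1, Col2a1, Col9a2 and Col11a1, which are best known from cartilage, while Col9a3 (0.19) and Col11a2 (0.15) were not called, nor were Col1a1 (0.02), Col1a2 (0.12) and Col3a1 (0.60) of interstitial matrix. Col9a2 had 511, 483 and 528 CPM in KO EGF organoids, against 108, 79.5 and 72.0 CPM in KO WR organoids (log2 2.59 ± 0.24, adjusted p = 1.58e-05, edgeR). Col11a1 had 628, 699 and 551 CPM in KO EGF organoids, against 230.2, 161 and 155 CPM in KO WR organoids (log2 1.82 ± 0.17). Both were clear of overlap. Col17a1, a hemidesmosomal collagen of basal cells, fell by 0.72 (SE 0.13). Among 28 inflammatory chemokines and acute-phase genes 4 rose and 1 fell (2 and 0 without the batch term). That is 17.9% called, beside 13.5% of all genes tested. The neutrophil attractant Cxcl5 had 107, 81.7 and 168 CPM in KO EGF organoids, against 19.9, 26.4 and 25.6 CPM in KO WR organoids (log2 2.31 ± 0.30). Cxcl14 and S100a8 rose by 1.45 each, and Lcn2 and Ltf are given above. Of 22 hypoxia and glycolysis genes 3 rose and 0 fell (Hk1, hexokinase, by 0.86 ± 0.10), and 11 rose in a fit of the 6 libraries alone. The 3 are 13.6% of the list, near the 13.5% of all genes tested that were called. Of 20 interferon-stimulated genes 0 were called by edgeR, with 1 at an unadjusted p under 0.05, and 0 by DESeq2, while 2 rose in the fit of the 6 libraries alone. Amino acid transporters had 3 higher and 2 lower of 18 (1 and 0 without the batch term, 5 and 4 in the fit of the 6 libraries alone), and Notch pathway genes 2 higher and 1 lower of 15 (1 and 0, and 3 and 3). That is 27.8% of the transporters and 20% of the Notch genes called. Dissociation and heat-shock genes had 1 higher and 3 lower of 20 (20% called), with 0 called without the batch term and 1 to 4 falls without single libraries (1 without KO EGF replicate 1, 2 or 3 or KO WR replicate 3). Cholesterol synthesis genes had 4 higher and 2 lower of 24 (25% called) and a median log2 fold change of 0.13. Without the batch term 0 of them were called, 1 rose without KO EGF replicate 2 or KO WR replicate 2, 2 rose without KO EGF replicate 3, and the median was -0.03 without KO WR replicate 2. Without any single library other than KO WR replicate 2, 0 fell.

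**Figure D4:**
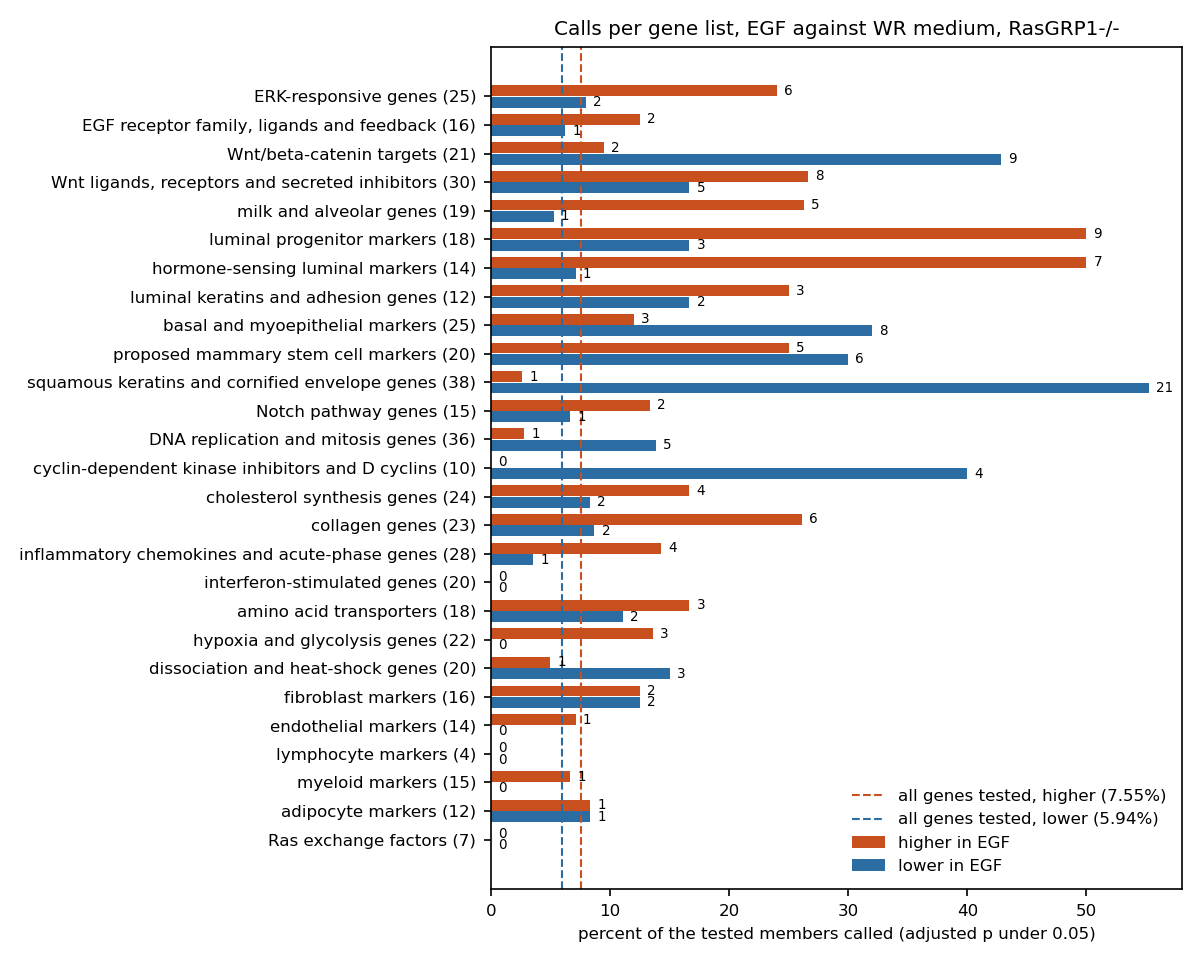
Percent of the tested members of each gene list that were called higher or lower in KO EGF than in KO WR organoids, with the dashed lines at 7.55% and 5.94%, the percentages over all genes tested. The squamous list stands out on the lower side, with 21 of 38 members, and the luminal progenitor and hormone-sensing lists on the higher side, with 9 of 18 and 7 of 14.

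Cells other than epithelium were present in the cultures, and some of their markers differed between media. The defining fibroblast markers were detected in all 6 libraries. The 16 tested fibroblast markers summed to 7452, 4432 and 5629 CPM in KO EGF organoids and 7225, 4052 and 3331 CPM in KO WR organoids, with 2 higher and 2 lower (0 and 0 without the batch term). That is 25% called, beside 13.5% of all genes tested. Fn1, fibronectin, which basal and stromal cells both make, had 2582, 1269 and 1538 CPM in KO EGF organoids, against 1009, 480.0 and 252 CPM in KO WR organoids (log2 1.80 ± 0.29, adjusted p = 0.00131, edgeR). Pdgfra rose by 0.93 ± 0.12. Without the batch term neither Fn1 nor Pdgfra was called (adjusted p = 0.188 and 0.0943, edgeR). Of other named genes, Fbln1 and Gsn were lower in EGF medium (adjusted p = 0.0174 and 0.0489, edgeR). Each lost its call in 5 of the 6 single omissions. Without KO EGF replicate 1 or 2, 0 fibroblast markers fell. Adipocyte markers summed to 1287, 1205 and 386 CPM in KO EGF organoids and 2112, 1870 and 394 CPM in KO WR organoids. The sum was lower in EGF medium in batches 1 and 2 and nearly equal in batch 3. Of 12 tested, 1 was called higher (Cidea, adjusted p = 0.021, edgeR) and 1 lower (Car3, -4.27 ± 0.88), which is 16.7%. Cidea lost its call without KO EGF replicate 1 or KO WR replicate 1 or 3 (adjusted p up to 0.119). Of the 12, 11 had a negative log2 fold change (median -0.70, and -0.11 without KO WR replicate 1). In a fit of the 6 libraries alone 5 fell. Endothelial markers summed to 591, 453 and 444 CPM in KO EGF organoids and 565, 808 and 373 CPM in KO WR organoids. Of 14 tested, 1 (7.14%) was called, the VEGF receptor Flt1 (1.28 ± 0.28), lost without KO WR replicate 1 (adjusted p = 0.0510). Of the 14, 12 had a negative log2 fold change (median -0.32), and without KO WR replicate 3, 1 rose and 3 fell. Myeloid markers other than Cd14, which is also on the luminal progenitor list, summed to 73.2, 21.5 and 51.8 CPM in KO EGF organoids and 54.3, 30.4 and 30.9 CPM in KO WR organoids. The 4 lymphocyte markers tested summed to 2.32 to 5.73 CPM in EGF and 2.64 to 5.39 CPM in WR medium, and Cd3d and Ms4a1 had no count in any library. Whether these cells had a part in the changes above was not tested.

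No gene's response to the medium differed between the genotypes at an adjusted p of 0.05. The difference of the KO and the WT response was tested in the same edgeR model, and 0 of 17092 genes (0%) were called, with 356 (2.08%) at an unadjusted p under 0.05. DESeq2 called 0 as well, with 467 unadjusted. In WT organoids 2639 genes (15.4%) were called between EGF and WR medium, and 1800 of them were among the 2306 of KO, which is 78.1% of the KO calls and 68.2% of the WT calls. None of these moved in opposite directions. The 2 comparisons share no library. Over the genes called in KO, the median size of the difference in log2 fold change was 0.111, with a median SE of 0.176, so that a difference of that size was not detectable with these libraries.

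Named genes gave these values in the genotypes. Csn3 had log2 fold changes of 4.96 in KO and 5.54 in WT, Axin2 -3.26 in KO and -2.91 in WT, Krt10 -5.66 in KO and -6.38 in WT, Etv5 3.38 in KO and 3.51 in WT, and Lef1 6.04 in KO and 5.02 in WT. In WT EGF organoids Csn3 had 605, 441 and 536 CPM, against 9.25, 8.60 and 18.5 CPM in WT WR organoids. Csn1s1 had 2.01 in KO and 2.74 in WT, with an unadjusted p of 0.0366 for the difference. Of the 19 milk genes, 16 had a lower log2 fold change in KO than in WT (median difference -0.34), with 3 at an unadjusted p under 0.05 and none after adjustment. Without KO WR replicate 1 the median difference of the milk genes was -0.05, with 13 of 19 lower. With a filter of at least 1 CPM in 3 libraries it was -0.09, with 12 of 15 lower. Of the 25 ERK-responsive genes, 24 had a lower log2 fold change in KO than in WT, against 51.1% of all genes tested, with a median difference of -0.28. Only 1 of the 25 differed at an unadjusted p under 0.05, and none after adjustment. Without KO WR replicate 2 the median difference was -0.09, with 19 of 25 lower, and without batch 2 it was -0.05, with 15 of 25 lower. Some other lists leaned the same way, such as fibroblast markers (14 of 16 lower) and inflammatory chemokines and acute-phase genes (23 of 28). Others leaned the other way, such as genes of DNA replication and mitosis (5 of 36 lower) and the squamous list (8 of 38). All 14 endothelial markers also had a lower log2 fold change in KO than in WT, by a median of -0.74, with 9 at an unadjusted p under 0.05 and none after adjustment. The squamous list had a median log2 fold change of -2.63 in KO and -3.28 in WT.

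**Figure D5:**
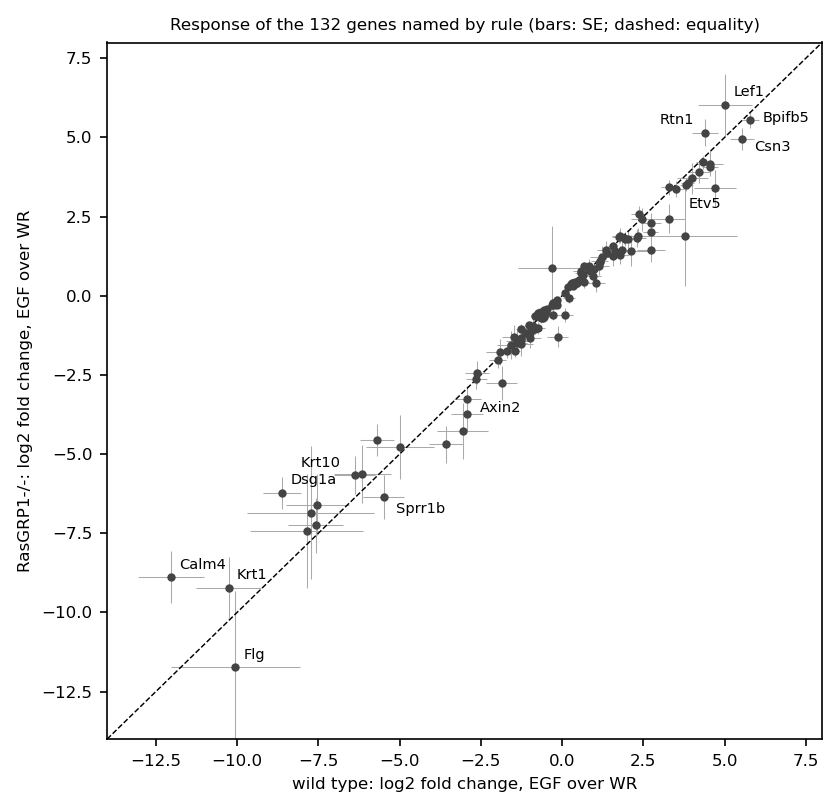
Log2 fold change of EGF over WR medium in KO (vertical axis) against WT organoids (horizontal axis) for 132 named genes, with SE bars and a dashed line of equality. The points follow the line, with Csn3 at 4.96 in KO and 5.54 in WT and Krt10 at -5.66 in KO and -6.38 in WT.

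In the medium with all 3 factors, KO organoids were set beside both others as a description, without a test. Csn3 had 400, 639 and 765 CPM there, close to its EGF values of 582, 572 and 717 CPM. Etv5 had 147, 123 and 200 CPM. Krt10 had 7.53, 7.12 and 14.8 CPM, nearer to its values of 3.30, 5.58 and 5.46 CPM in EGF medium than to the 133, 339.8 and 229 CPM in WR medium. Axin2 lay between the media in each batch, with 5.71, 37.6 and 35.05 CPM, and so did Ccnd1, with 470, 521 and 653 CPM. Lef1 had 3.49, 0 and 0.493 CPM, below its level in EGF medium in each batch.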

How the data were processed

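The authors deposited raw read counts per Ensembl gene for 55536 genes in 18 libraries. Per the submitters' processing notes, STAR, DESeq2 and the GRCm38 build were used, with versions, annotation release, counting tool and strand setting not given in the sources used here, so a gene and an antisense partner cannot be told apart. Per the labels, the NuGEN library kit took 100 ng of total RNA, and HiSeq reads were single-end with 50 bases. Replicates of a group vary by preparation per the series' design. The p-values measure the spread between replicates that is left after the batch term. That spread is estimated over all 6 groups and shared in part across genes.

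TMM scaling and filterByExpr (minimum count 10, minimum total 15) of edgeR 4.0.16 in R 4.3.3 kept 17092 genes. The model was fitted once to all 18 libraries, with 6 group means and the batch. The labels give each sample a batch equal to its replicate number, and deviations from group means correlated at 0.453, 0.323 and 0.356 within batches and -0.282 to -0.0732 across them. KO EGF over KO WR, and the KO minus WT difference of that response, were tested two-sided with the robust quasi-likelihood test and adjusted by Benjamini-Hochberg over all genes tested. The SE is the log2 fold change divided by the root of its F statistic. CPM were computed here on the effective library sizes. Batch ratios use a prior count of 0.5. Alternatives were no batch term, the 6 libraries alone, DESeq2 1.42.0 and its size factors, 2 other filters, and leaving out libraries or batches. The code was tested on simulated data.

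The authors' deposited table of log2 fold changes and adjusted p-values was used only for comparison: of its 15635 genes with an adjusted p, 2816 were under 0.05 (1495 higher and 1321 lower in EGF medium), and 2295 of these were called here in the same direction (81.5% of theirs, 99.5% of those called here). It holds gene symbols and positions, with 3047 genes left without a symbol. Promoter sequences come from RefSeq (GRCm38.p6).

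Named genes are the 12 largest rises and 12 largest falls among called genes with a mean of at least 4 CPM over the 6 libraries and no overlap between media, without predicted genes, plus up to 6 called members of each of 27 gene lists and a set of genes named whatever their values. Further list members named were chosen after their values were seen. Members and lists were chosen with earlier results of these data known. A fold against a group without counts uses a floor of 3 counts over that group, and such bounds and counting intervals (95%, exact) cover counting error only.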

Additional observations from a re-analysis of the deposited data

How the results depend on the processing

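Directions were stable and the number of calls was not. Without the replicate block 729 genes were called instead of 2306 (438 instead of 1290 higher, 291 instead of 1016 lower), 57 instead of 120 of the 132 named genes and 68 instead of 146 list genes. Leaving out 1 library or 1 batch gave 906 to 2008 called genes, 563 to 1140 higher and 343 to 891 lower, with 71 to 109 named genes and 84 to 136 list genes called; the fewest came without batch 3, and without batch 1 there were 1523, of which 625 lower, and without KO EGF replicate 3 641 lower. The 6 libraries alone gave 2264 calls, DESeq2 size factors 2294, no filter 1966, a filter of at least 1 CPM 2385 and the DESeq2 test 2818, and no gene called in both had the opposite direction in any of these. The difference between genotypes had 0 calls under each of these settings. Of the 120 named genes called, 80 kept the call without any single library and 61 also without any batch. The Rasgrp1 difference between KO and WT ranged over -4.94 to -1.96 (log2) in these omissions and passed the test with DESeq2 (-2.93). The uncalled response of Rasgrp1 to EGF medium in KO (0.88) reversed to -0.643 without KO EGF replicate 2 and to -0.932 without batch 2 (up to 4.52 in the single omissions, without KO WR replicate 3), and that of Acta2 (-0.06) to 0.111 without KO WR replicate 2 and 0.0645 without batch 2 (down to -0.179 without KO WR replicate 3); the cause was not tested. Low counts limit the precision for genes such as Csn2 and Wap.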

Other observations

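Genes outside the lists, chosen after their values were seen, also differed between EGF and WR medium in KO organoids. Igfbp5, which binds insulin-like growth factors, was among the most counted genes and had 32449, 20466 and 23641 CPM in KO EGF organoids, against 19035, 9916 and 9969 CPM in KO WR organoids (log2 1.02 ± 0.17, adjusted p = 0.000805, edgeR, and 0.258 without the batch term). Aqp5, the aquaporin of secretory glands, had 275, 194 and 254 CPM in KO EGF organoids, against 46.6, 45.4 and 50.2 CPM in KO WR organoids (log2 2.33 ± 0.11). Aqp3, the aquaporin of epidermis, averaged 7.58 ± 2.96 CPM in KO EGF organoids and 70.2 ± 31.6 CPM in KO WR organoids (SD, n = 3 each; log2 -3.22 ± 0.35), and the aquaglyceroporin Aqp9 fell by 2.64 (SE 0.28). Cldn2, a pore-forming tight junction protein, rose by 3.23 ± 0.19, and Atp6v0a4, a proton pump subunit, by 2.03 ± 0.29. Igfbp5 and Atp6v0a4 lost their calls without batch 3 (adjusted p = 0.0502 and 0.0594, edgeR). The desmosomal cadherins Dsc3 and Dsg3 of stratified epithelia fell by 2.86 (SE 0.28) and 1.93 (SE 0.28), and the gap junction gene Gjb2 by 2.32 (SE 0.27).

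Genes of other signalling pathways also changed. Gli1, a hedgehog target, had 5.03, 2.66 and 2.54 CPM in KO EGF organoids, against 53.2, 18.9 and 34.4 CPM in KO WR organoids (log2 -3.38 ± 0.46, adjusted p = 0.00027, edgeR). Fgfr1 had 1289.5, 1225 and 965 CPM in KO EGF organoids, against 442, 494 and 314 CPM in KO WR organoids (log2 1.49 ± 0.12). Fgfr2 fell by 0.56 (SE 0.14) and Fgfr3 by 0.65 (SE 0.20), and both lost the call without KO EGF replicate 1 or 3 or KO WR replicate 1 or 3 (adjusted p up to 0.0885 for Fgfr2 and 0.224 for Fgfr3). Bmp2 and Bmp3 rose by 1.64 ± 0.30 and 1.90 ± 0.31, Tgfb3 by 1.12 ± 0.20, and the latent TGF-beta binding protein Ltbp2 by 2.40 ± 0.31. Sostdc1, a secreted antagonist of BMP and Wnt, fell by 2.04 (SE 0.31), and Runx3, a Runt-family factor, by 3.66 (SE 0.41), with 0.741, 3.09 and 2.13 CPM in KO EGF organoids against 28.1, 22.0 and 18.4 CPM in KO WR organoids. Each of these changes had the same sign in 3 of 3 batches. That follows from the lack of overlap between the media in these genes, which were chosen after their values were seen, so it is not a separate check. Gli1, Sostdc1 and Tgfb3 lost their calls without batch 3 (adjusted p = 0.0601, 0.0708 and 0.0708, edgeR).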
